A study of Cricetulus griseus with 6 samples.

Results

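The baseline transcriptome of CHO-T cells was described from the 3 control siRNA libraries, out of 6 libraries in the series. CHO cells are an adherent line that was established from the ovary of a Chinese hamster (*Cricetulus griseus*), and CHO-T cells are CHO cells that carry a retroviral cDNA of mouse T-cadherin (*Cdh13*) and were selected with puromycin. The cells were transfected with a negative control siRNA for 48 h, so every level below is that of transfected cells that carry the transgene. No untransfected cells and no parental CHO cells are among these samples, and whether the line is 1 clone is not given in the sources used here. The labels number the libraries 1 to 3 without saying whether they came from separate cultures. The study describes its results in general as coming from independent biological experiments, and those shown with these samples as representative of separate experiments. Whether these 3 libraries are separate cultures is thus not settled, and the SDs and CVs between them may be technical. A gene was taken as expressed at a mean of at least 1 FPKM (the number of sequenced fragments corrected for gene length and library size), and 11490 of the 27873 entries of the gene table reached this floor.

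CHO cells are widely used as a host for making secreted glycoproteins. Which surface receptors, adhesion molecules and glycosylating enzymes they carry decides which ligands they can answer and which sugars they add. A cell line keeps some marks of its tissue of origin, such as position genes of the Hox clusters, and may lose others in culture. All levels below are FPKM, and each ± is the SD over the 3 libraries.

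The floor of 1 FPKM split the table into 11490 entries at or above it, 5010 entries above 0 but under it, and 11373 entries that were listed at 0 in all 3 libraries. The expressed entries were mostly protein-coding by the RefSeq gene table (10187 entries, with a median of 18.6 FPKM), and 647 were long noncoding RNAs with a median of 3.88 FPKM. Of 15902 entries with a gene name, 58.7% were expressed. Every count of expressed list members below is to be read beside this share. Of 11971 entries listed under a LOC number, 17.9% were expressed. In total 11083 entries stood at 1 FPKM or more in each of the 3 libraries. Of the expressed entries, 105 were at 0 in at least 1 library, and 45 of these had a value in 1 library only. Of these 45 entries, 23 were small nucleolar RNAs and 11 were small nuclear RNAs, and the highest had a mean of 32.8 FPKM. In such short features a few fragments give a high FPKM, so a mean above the floor did not by itself show that an entry was expressed. Of the named genes, *Mt1* was among these 45 entries.

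Expression was concentrated in few entries. The 58 highest entries held 25% of the summed FPKM, 423 held 50%, 1971 held 75% and 6337 held 95%. There were 83 entries at 1000 FPKM or more, which together held 29.6% of the sum, and 1017 entries between 100 and 1000 FPKM, which held 35.2%. The largest class was the 6292 entries between 10 and 100 FPKM, with 32.1% of the sum. The 856 entries at 1 to 2 FPKM and the 1506 entries at 2 to 5 FPKM held 0.189% and 0.779% of it. The 10 highest entries held 8.02 ± 0.0804% of the sum of a library.

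The most abundant named transcript was *Eef1a1*, which encodes the elongation factor that brings aminoacyl-tRNA to the ribosome, at 6437, 6504 and 6487 FPKM in replicates 1, 2 and 3. It was followed by *Rpl23a* at 6394, 6178 and 6226 FPKM and *Rps18* at 5960.1, 5501 and 5617 FPKM, which encode proteins of the large and the small ribosomal subunit. The level of *Eef1a1* was above that of *Rpl23a* in each library, and the ranges of the 3 libraries did not overlap between *Rpl23a* and *Rps18*. A total of 9 of the 10 highest entries, 39 of the highest 50 and 66 of the highest 100 encoded cytosolic ribosomal proteins. The 25 highest named genes included only 3 others, which were *Eef1a1*, the ferritin heavy chain *Fth1* (4401 ± 134 FPKM), which stores iron, and the glycolytic enzyme *Gapdh* (3174 ± 71.1 FPKM). *Rplp0*, which the study used as its reference gene for quantitative PCR, stood at 3184, 3105 and 3014 FPKM. Ribosomal protein genes and *Gapdh* have many near-identical processed copies in rodent genomes, so the split of reads among copies is uncertain for them. Of the LOC entries, 2 were among the 25 highest entries, with means of 3146 and 2834 FPKM.

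**Figure D1:**
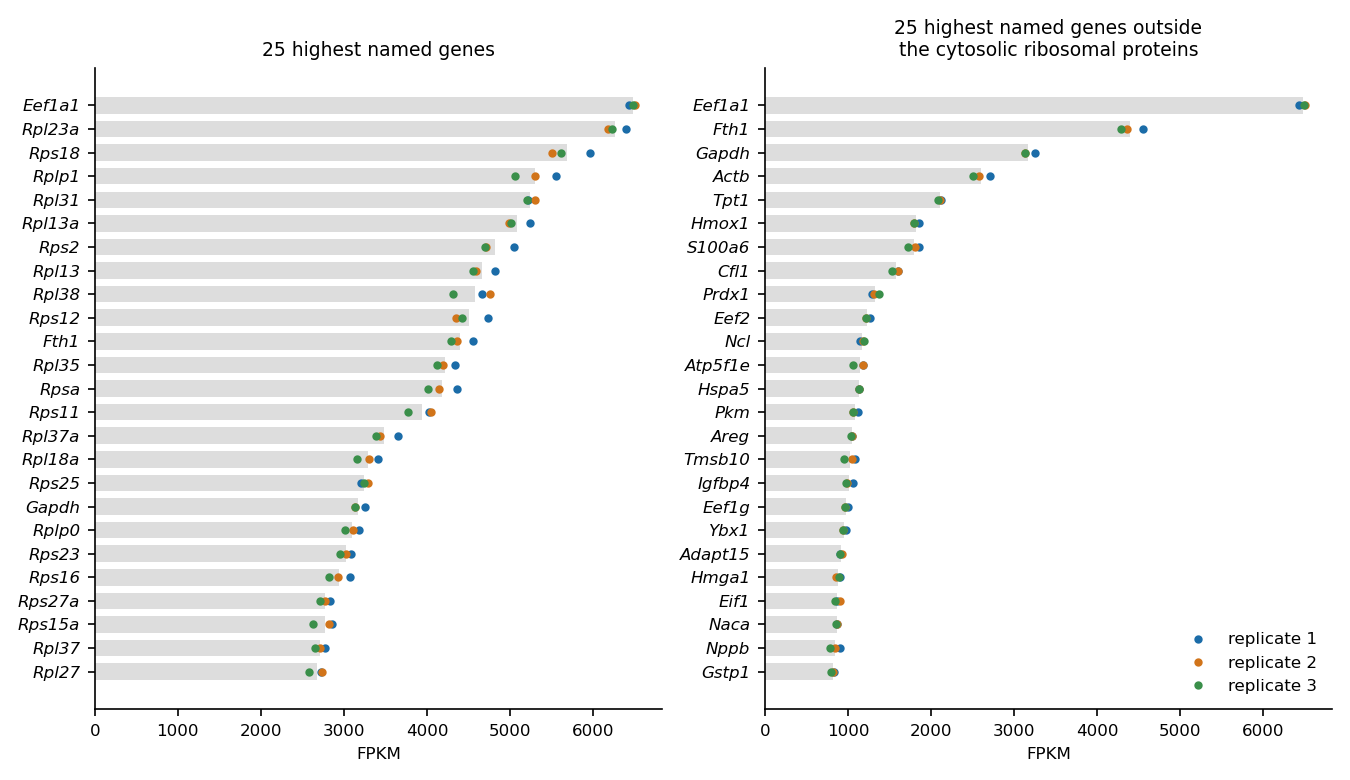
Levels of the 25 highest named genes (left) and of the 25 highest named genes outside the cytosolic ribosomal proteins (right) in FPKM on linear axes. Bars are means of the 3 control siRNA libraries and points are the libraries. On the left the levels run from 2679 FPKM (*Rpl27*) to 6476 FPKM (*Eef1a1*), and on the right from 817 FPKM (*Gstp1*) up.

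Outside the ribosomal proteins the 25 highest named genes included the translation factors *Eef1a1*, *Eef2*, *Eef1g* and *Eif1*, genes of the cytoskeleton, of redox and iron handling and of glycolysis, the chaperone *Hspa5* and the secreted signals *Areg*, *Igfbp4* and *Nppb*. This ranking and this grouping were made after the values were seen. Cytoplasmic beta-actin (*Actb*) was at 2712, 2582 and 2507 FPKM, a mean of 10.01 ± 0.340 times the level of gamma-actin (*Actg1*). How reads were split between these actin genes was not tested. The actin-severing protein cofilin (*Cfl1*) was at 1575 ± 42.1 FPKM and the actin-monomer binding peptide thymosin beta (*Tmsb10*) at 1026 ± 69.6 FPKM. The calcium-binding protein *S100a6* was at 1794 ± 64.8 FPKM and *Tpt1*, the translationally controlled tumour protein, at 2104 ± 16.05 FPKM.

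Haem oxygenase, *Hmox1*, which degrades haem, was the sixth gene of this ranking, at 1852, 1791 and 1797 FPKM. It is a target of the transcription factor NRF2 (*Nfe2l2*), which was itself at 161 ± 3.86 FPKM. All 13 members of a list of *Nfe2l2* and its antioxidant targets were expressed, beside 58.7% of all named entries. Peroxiredoxin *Prdx1*, which reduces peroxides, was at 1291, 1318 and 1372 FPKM, and the glutathione transferase *Gstp1* at 836, 819.8 and 796 FPKM. Thioredoxin (*Txn*) stood at 768 ± 18.9 FPKM beside its reductase *Txnrd1* at 743 ± 24.3 FPKM. The lowest of these targets was the quinone reductase *Nqo1* at 10.6 ± 0.762 FPKM. The entry named for the light chain of ferritin, *Ftl*, was at 0.101 ± 0.0875 FPKM. A light chain copy listed under a LOC number would not have been found by this name. Of the metallothioneins, which bind zinc and copper, *Mt2* was listed at 0 and *Mt1* was at 0, 9.61 and 0 FPKM.

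Transcripts for 3 secreted regulators were among these 25 genes. Amphiregulin (*Areg*), a ligand of the EGF receptor, was at 1048, 1049.6 and 1036 FPKM. *Igfbp4*, which binds insulin-like growth factors outside the cell, was at 1059.7, 993 and 976 FPKM. B-type natriuretic peptide (*Nppb*), a hormone best known from heart muscle, was at 899, 839 and 782 FPKM, and its level was 78.7 ± 7.06 times that of atrial natriuretic peptide (*Nppa*, 10.7 ± 1.28 FPKM). The 3 libraries lay close together for *Areg* (coefficient of variation 0.704%) and further apart for *Igfbp4* (4.37%) and *Nppb* (6.92%).

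Read as gene classes, protein synthesis took the largest share. The 80 entries for cytosolic ribosomal proteins, of which 79 were expressed, held 24.4%, 24.1% and 23.8% of the summed FPKM in replicates 1, 2 and 3. Translation factors held 2.65 ± 0.0216% and the mitochondrial respiratory chain with ATP synthase held 2.204 ± 0.0239%. Splicing factors and heterogeneous ribonucleoproteins held 1.29 ± 0.0209%, actin-binding proteins and myosins 1.11 ± 0.0108%, mitochondrial ribosomal proteins 1.01 ± 0.0208% and glycolytic enzymes 0.969 ± 0.00575%. The proteasome, which degrades ubiquitinated proteins, held 0.843 ± 0.00550%. These shares count LOC entries in the sum but in no class. Of 383 entries in the 7 classes that every cell uses (ribosomal proteins of both kinds, translation factors, tRNA synthetases, respiratory chain, proteasome and DNA replication), 379 were expressed and 1 was listed at 0, the thymus proteasome subunit *Psmb11*. At the other end, 33 collagen entries held 0.0193 ± 0.000544%, with 6 of them expressed. Of 338 solute carriers, which move small molecules across membranes, 163 were expressed, led by *Slc3a2* at 506 ± 17.5 FPKM, the heavy chain of amino acid exchangers, with its light chain *Slc7a5* at 369 ± 4.84 FPKM.

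**Figure D2:**
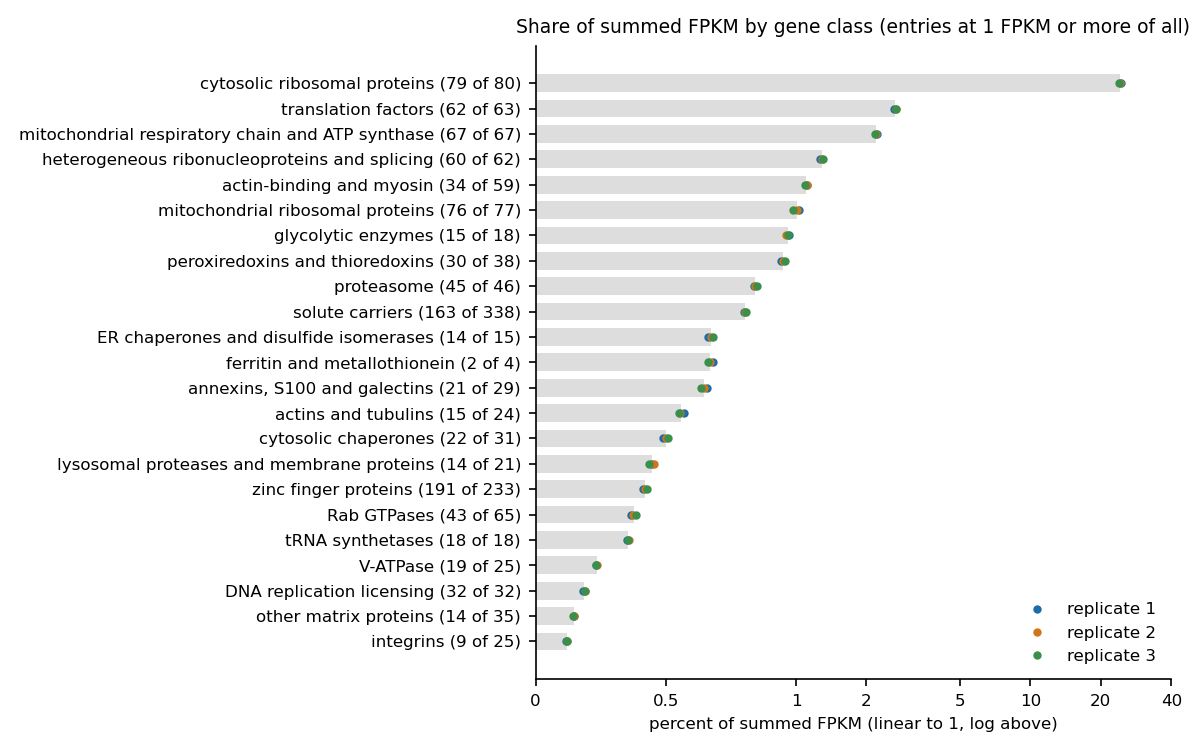
Percent of the summed FPKM held by gene classes, on an axis that is linear to 1 and logarithmic above it. Bars are means of the 3 libraries, points are the libraries, and the numbers in brackets give the expressed entries of all entries in the class. Cytosolic ribosomal proteins hold 24.1% and no other class reaches 3%.

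The labels give the ovary as the tissue. The lineage markers with the highest levels were mesenchymal, apart from the neural marker *Ncam1*, and *Gata4* was the highest of the ovarian markers. Of 26 mesenchymal markers found in the table, 16 were expressed (61.5%, beside 58.7% of all named entries). Vimentin (*Vim*), the intermediate filament of mesenchymal cells, was at 389, 373 and 369 FPKM. The collagen-binding glycoprotein *Sparc* was at 319, 329 and 300.1 FPKM, and the TGF-beta co-receptor endoglin (*Eng*) at 281, 258 and 252 FPKM. The ranges of *Sparc* and *Eng* did not overlap, nor did those of *Vim* and *Sparc*. The transcription factors *Twist1* (40.5 ± 1.804 FPKM), *Prrx1* (37.7 ± 2.25 FPKM), *Zeb1* (18.8 ± 0.735 FPKM) and *Zeb2* (10.1 ± 0.334 FPKM), which repress epithelial genes or mark mesenchyme, were all expressed. Genes of fibroblasts went both ways. *Col1a1*, *Col1a2*, *Thy1* and *Lum* were listed at 0 in every library, and fibronectin (*Fn1*) was at 13.1 ± 0.432 FPKM. By mean level *S100a4* lay above *Zeb1*, and *Dcn*, *Pdgfra* and *Pdgfrb* lay between *Zeb2* and *Col3a1* (3.96 FPKM). N-cadherin (*Cdh2*), which mesenchymal cells usually carry, was at 0.162, 0 and 0.0276 FPKM. The summed level of the mesenchymal list was between 1099 and 1165 FPKM per library.

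Epithelial markers were low. Of 17 markers found, 4 were expressed (23.5%, beside 58.7% of all named entries). The summed level of the list was 20.6 to 21.5 FPKM per library. The membrane protease *St14* was at 8.95, 9.09 and 8.04 FPKM, the mucin *Muc1* at 6.097, 6.82 and 5.81 FPKM, desmoplakin (*Dsp*) at 3.58, 3.34 and 4.04 FPKM and *Epcam* at 1.82 ± 0.105 FPKM. E-cadherin (*Cdh1*) was at 0.223, 0.0296 and 0.142 FPKM, or 8, 1 and 5 reads when read from the steps that single reads make in low FPKM. The keratins *Krt14*, *Krt18* and *Krt19* and the markers *Cldn7* and *Rab25* were listed at 0, and *Krt5*, *Krt7*, *Krt8*, *Cldn3* and *Cldn4* were not matched by name. Of 25 intermediate filament genes, 5 were expressed, and *Krt80* at 1.53 ± 0.481 FPKM was the only keratin among them.

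Of 22 genes of granulosa and theca cells, the somatic cells of the follicle, 11 were expressed (50%, beside 58.7% of all named entries). *Gata4*, a transcription factor of gonadal somatic cells and heart, was at 38.7, 39.3 and 38.8 FPKM. Follistatin (*Fst*), which binds activin, was at 19.1, 22.97 and 21.96 FPKM, and *Inhbb*, an activin and inhibin subunit, at 17.1, 16.3 and 14.03 FPKM. Anti-Müllerian hormone (*Amh*, 2.69 ± 0.564 FPKM) and its receptor *Amhr2* (3.22 ± 0.574 FPKM) were just above the floor, with ranges that overlapped. The receptors for the gonadotropins, *Fshr* and *Lhcgr*, were listed at 0, as were *Inhba*, *Nr5a2*, *Pgr* and *Insl3*. *Star*, which brings cholesterol to the steroid-making enzymes, was at 0.743, 0.922 and 0.8001 FPKM, under the floor in each library. *Foxl2*, *Cyp11a1*, *Cyp17a1*, *Cyp19a1* and *Hsd3b1* were not matched by name, so steroid synthesis could not be read further. Of 9 ovarian surface genes 2 were expressed, mesothelin (*Msln*, 2.27 ± 0.413 FPKM) and *Tbx18* (1.06 ± 0.256 FPKM). Of 15 oocyte genes only *Ddx4* passed the floor, at 1.28, 1.68 and 1.94 FPKM, and the egg coat genes *Zp1*, *Zp2* and *Zp3* were listed at 0.

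Markers of other lineages were mostly under the floor. In bulk libraries a low level in every cell cannot be told apart from a higher level in few cells. No member of 13 endothelial markers was expressed, and *Flt1* at 0.807 ± 0.0945 FPKM was the highest. Of 20 haematopoietic markers only *Lcp1* was at the floor, at 1.05, 0.918 and 1.24 FPKM, and *Ptprc*, the pan-leukocyte gene, was listed at 0. Of 10 muscle markers only the smooth muscle protein *Smtn* passed, at 9.36 ± 0.417 FPKM. Of 15 neural markers 3 passed, and one of them was high: *Ncam1*, a homophilic adhesion molecule, was at 606, 609 and 604 FPKM, while *Mbp* was at 3.43 ± 0.770 FPKM and *Tubb3* at 1.74 ± 0.199 FPKM. Of 8 pluripotency genes *Klf4* (31.01 ± 0.324 FPKM) and *Tdgf1* (10.9 ± 0.593 FPKM) were expressed, and *Pou5f1*, *Nanog*, *Sox2*, *Lin28a*, *Dppa5* and *Utf1* were listed at 0.

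**Figure D3:**
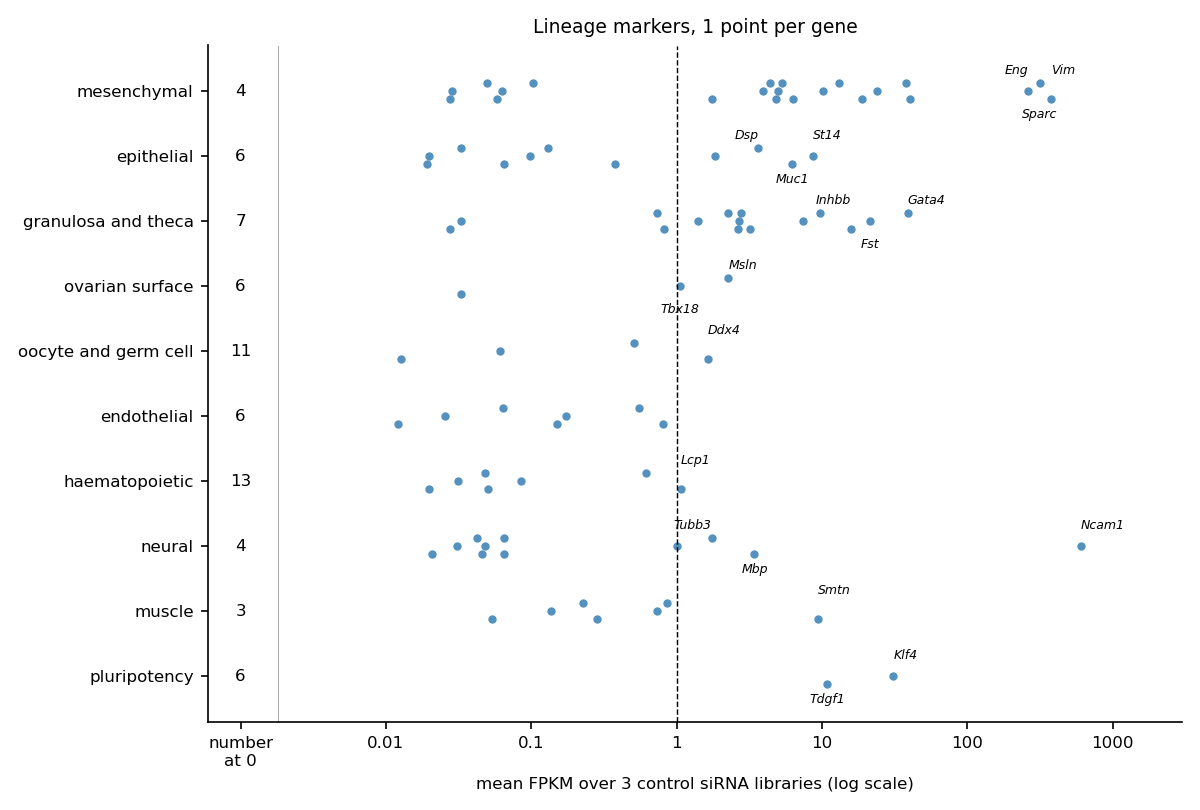
Mean FPKM over the 3 libraries of every lineage marker found in the table, on a log axis, with 1 point per gene, the dashed line at the floor of 1 FPKM and the number of markers listed at 0 at the left. The 3 highest expressed members of each list are named. Mesenchymal markers reach 377 FPKM (*Vim*), whereas no epithelial marker is above 8.69 FPKM (*St14*).

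Hox genes encode transcription factors of body position. Of 33 found, 20 were expressed (60.6%, beside 58.7% of all named entries), and the highest were *Hoxd8* at 32.04, 28.9 and 30.7 FPKM, *Hoxb7* at 25.6, 28.6 and 21.8 FPKM and *Hoxc10* at 21.7, 19.01 and 19.7 FPKM. Their ranges did not overlap, although the lowest *Hoxb7* library and the highest *Hoxc10* library nearly met. Listed at 0 were *Hoxa9*, *Hoxb1*, *Hoxb13*, *Hoxc11*, *Hoxc12*, *Hoxc13*, *Hoxd1*, *Hoxd10*, *Hoxd12* and *Hoxd13*, and *Hoxa2*, *Hoxa4* and *Hoxa11* were under the floor. The forkhead factor *Foxf1*, a gene of visceral mesenchyme, was at 43.7, 41.7 and 41.9 FPKM and its relative *Foxf2* at 14.3 ± 1.03 FPKM. *Gata2* was at 17.7 ± 0.519 FPKM beside *Gata4*, and *Gata1* and *Gata5* were listed at 0. Of 13 Sox genes only *Sox4* (12.04 ± 0.376 FPKM) and *Sox5* (1.91 ± 0.0331 FPKM) were expressed.

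The adhesion families differed in how many of their members were expressed, from 20 of 22 focal adhesion genes to none of 6 desmosomal cadherins. Among all named entries the share was 58.7%. Integrins are pairs of an alpha and a beta chain that bind matrix proteins. Of 8 beta chains, *Itgb1* was at 560.2, 567 and 567 FPKM, *Itgb5* at 74.5, 72.2 and 72.8 FPKM and *Itgb4* at 8.07, 8.303 and 7.74 FPKM, and the other 5 were under 0.05 FPKM or listed at 0. Of 17 alpha chains 6 were expressed. The fibronectin receptor chain *Itga5* was at 85.7, 80.7 and 78.5 FPKM, the laminin receptor chain *Itga3* at 43.6, 43.7 and 45.01 FPKM and *Itgav* at 10.7, 12.2 and 13.3 FPKM. No neighbours in the order of the expressed alpha or beta chains overlapped in their ranges. *Itga6*, the usual partner of *Itgb4*, was listed at 0. The level of *Itgb1* was 6.93 ± 0.352 times that of *Itga5*.

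The laminins that *Itga3* chains bind were present: *Lamb1* at 287 ± 1.69 FPKM, *Lamc1* at 153 ± 1.45 FPKM and *Lama5* at 77.8 ± 1.63 FPKM, so the 3 kinds of chain that make a laminin trimer were each expressed. Of 36 collagen genes, with those matched by RefSeq gene number, only 6 were expressed. *Col8a1*, a short-chain collagen, was at 99.9, 99.9 and 104 FPKM and *Col16a1* at 15.1, 13.1 and 14.1 FPKM, and *Col3a1* followed at 3.96 ± 0.589 FPKM. Of 22 focal adhesion genes, which tie integrins to actin, 20 were expressed, led by *Fermt2* (95.7 ± 1.62 FPKM), filamin *Flna* (93.7 ± 1.63 FPKM) and *Lims1* (79.5 ± 4.25 FPKM), where *Fermt2* overlapped *Flna* and *Lims1* overlapped *Src* in range. The blood cell and epithelial kindlins *Fermt3* and *Fermt1* were the ones under the floor.

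A list of 23 cadherins, the calcium-dependent cell to cell adhesion proteins, had 2 expressed members. *Cdh13*, which the study calls a unique cadherin, was at 85.4, 84.6 and 85.5 FPKM. The only other one was *Cdh24*, just above the floor at 1.07, 1.08 and 1.06 FPKM. The mouse cDNA is counted under *Cdh13* only as far as its sequence matches the hamster gene, and these files do not separate the transgene from the hamster gene. The study describes CHO-T cells as lacking detectable T-cadherin apart from the cDNA. All 6 desmosomal cadherins found were listed at 0. The catenins that link cadherins to actin were expressed nonetheless, with *Ctnnb1* at 120.2 ± 3.89 FPKM, *Ctnna1* at 79.4 ± 0.711 FPKM and *Ctnnd1* at 34.3 ± 1.84 FPKM. T-cadherin itself has no intracellular domain and is held in the membrane by a lipid anchor.

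Among 31 adhesion molecules of the immunoglobulin family and related surface proteins, 10 were expressed. *Ncam1* led, as given above, ahead of basigin (*Bsg*) at 386, 374 and 343 FPKM and the hyaluronan receptor *Cd44* at 199.7, 204 and 205 FPKM. *Alcam* (61.3 ± 1.700 FPKM) and *Icam1* (60.1 ± 1.65 FPKM) had ranges that overlapped. *Nectin3* was at 33.1 ± 2.74 FPKM while *Nectin1*, *Nectin2* and *Nectin4* were listed at 0, as were *L1cam*, *F11r*, *Jam2* and *Jam3*. Tight junctions were represented by the scaffold *Tjp1* (35.7, 38.3 and 39.7 FPKM) and *Cldn12* (10.4, 11.8 and 10.6 FPKM), with 12 of the 26 genes found listed at 0. Gap junction channels were carried by *Gja1* at 608, 628 and 606 FPKM, which was 23.8 ± 2.07 times the pannexin *Panx1*, with *Gjb5* at 25.1 ± 2.19 FPKM. Of 10 syndecans and glypicans, the heparan sulphate proteoglycans of the surface, 5 were expressed. The highest were *Sdc4* at 205, 215 and 217 FPKM, *Gpc1* at 159 ± 0.361 FPKM and *Sdc1* at 139 ± 3.66 FPKM, followed by *Gpc5* and *Gpc6*.

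**Figure D4:**
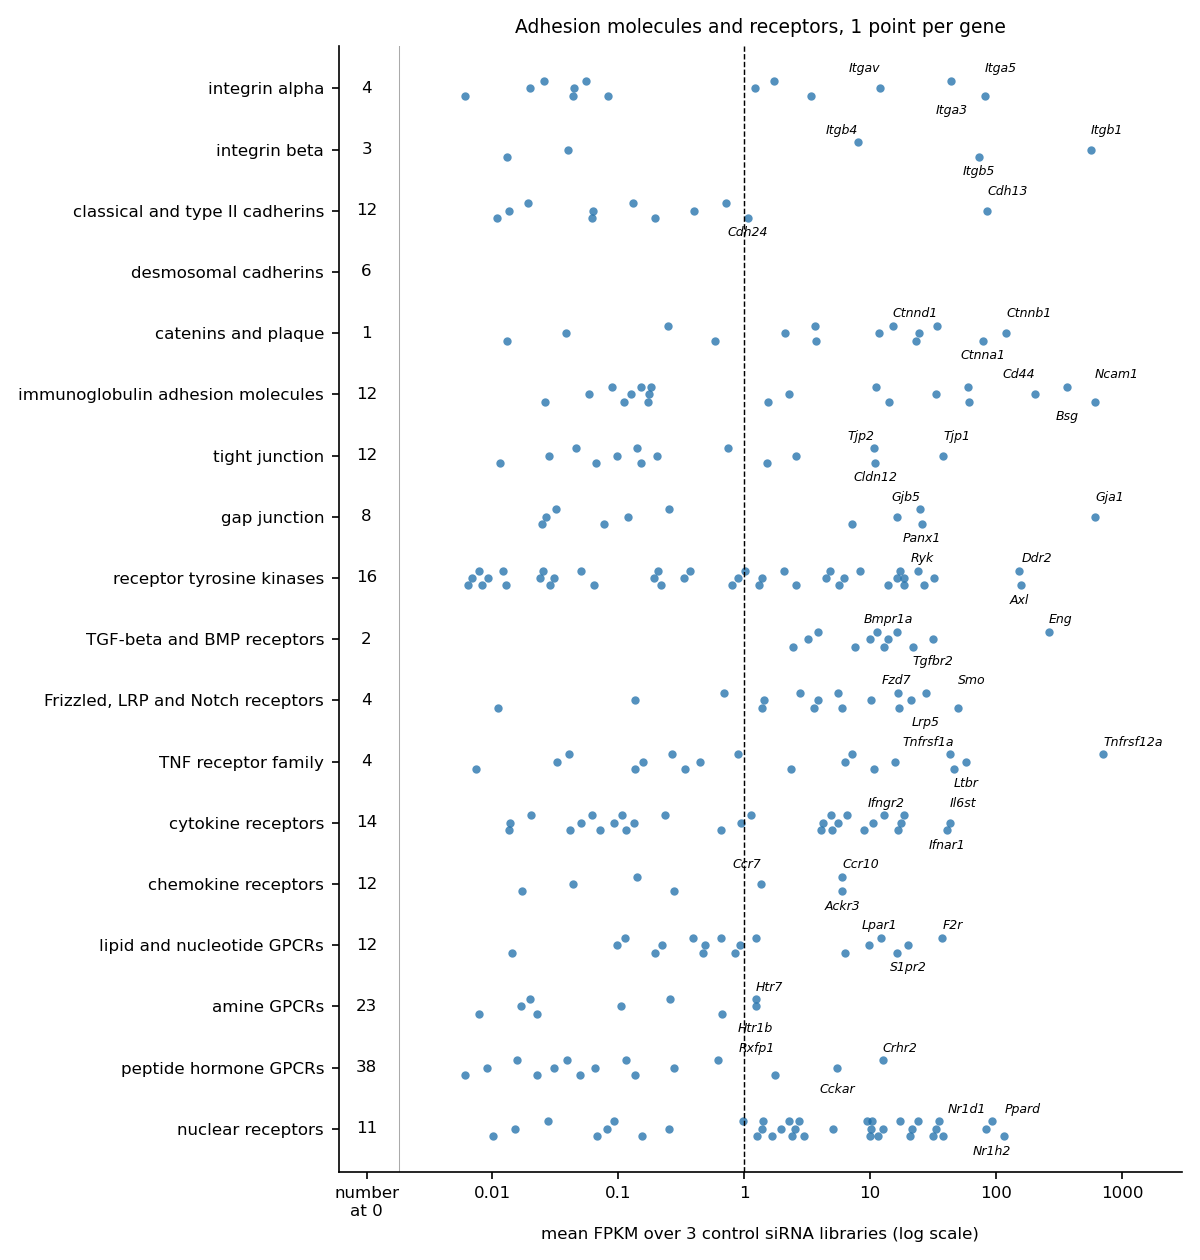
Mean FPKM over the 3 libraries of the genes found in the table for the adhesion and receptor families named at the left, on a log axis, with 1 point per gene, the dashed line at the floor of 1 FPKM and the number of genes listed at 0 at the left. The 3 highest expressed members of each family are named. The family labelled classical and type II cadherins also holds *Cdh13*, the lipid-anchored T-cadherin. Most of the families drawn have a majority of genes under the floor, whereas the catenins (10 of 15), the TGF-beta and BMP receptors (12 of 14), the Frizzled, LRP and Notch receptors (13 of 20) and the nuclear receptors (28 of 48) have a majority above it.

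Receptor tyrosine kinases, which sense growth factors and matrix, were expressed for 20 of 56 genes found (35.7%, beside 58.7% of all named entries). The collagen receptor *Ddr2* was at 151, 162 and 165 FPKM and *Axl*, the receptor for GAS6, at 154, 154 and 149 FPKM, and their ranges overlapped. *Ryk*, a Wnt co-receptor, followed at 30.8, 32.9 and 33.2 FPKM, so that *Axl* stood 4.73 ± 0.255 times above it. The other matrix-sensing kinase, *Ddr1*, was lower than *Ddr2* by a factor of 11.6 ± 0.600. Growth factor receptors in the middle range were *Fgfr1* (26.6 ± 2.47 FPKM), *Epha2* (24.02 ± 1.67 FPKM), the insulin receptor *Insr* (18.6 ± 0.804 FPKM), *Igf1r* (6.22 ± 0.511 FPKM) and *Met* (5.702 ± 0.138 FPKM).

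Of the 4 receptors of the EGF family 1 was expressed. *Egfr* was at 0, 0.0191 and 0 FPKM, *Erbb3* at 0.0237, 0 and 0 FPKM and *Erbb4* at 0.0252, 0.0134 and 0 FPKM, the last of which came to 2, 1 and 0 reads. *Erbb2*, which binds no ligand of its own, was the one expressed, at 8.81, 8.35 and 7.91 FPKM. Of 11 ligands of the family 6 were expressed, and *Areg* was 75.3 ± 6.12 times above the next, *Ereg* (13.4, 15.4 and 13.1 FPKM), whose range overlapped that of *Nrg3* (12.2 ± 1.13 FPKM). The transmembrane protease *Adam17*, which sheds these ligands, was at 27.6 ± 0.762 FPKM.

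Of 14 receptors of the TGF-beta and BMP family 12 were expressed (85.7%, beside 58.7% of all named entries). *Eng* was 8.42 ± 0.591 times above *Tgfbr2* (30.9, 31.2 and 31.9 FPKM), which was followed by *Bmpr1a* (20.3, 22.99 and 21.97 FPKM), and *Acvr1c* and the endothelial receptor *Acvrl1* were listed at 0. The ligands were sparser, with 6 of 25 expressed, led by *Tgfb1* at 17.2, 17.97 and 15.8 FPKM, with a range that overlapped that of *Inhbb*. The Hedgehog transducer *Smo* was at 50.9, 49.4 and 48.6 FPKM and the Wnt receptors *Lrp5* at 28.05, 27.2 and 27.6 FPKM and *Fzd7* at 20.1, 21.7 and 21.6 FPKM, and *Notch2* was at 16.9 ± 0.524 FPKM. Of 18 Wnt ligands only *Wnt5b* was expressed, at 1.31, 1.22 and 1.11 FPKM, and 11 were listed at 0.

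In the TNF receptor family 9 of 22 genes were expressed. *Tnfrsf12a*, the receptor for TWEAK, was at 785, 678 and 659 FPKM, higher in replicate 1 than in the others, and 15.4 ± 0.354 times above *Tnfrsf1a* (49.9, 45.1 and 43.1 FPKM). The lymphotoxin receptor *Ltbr* was at 61.8, 55.6 and 55.3 FPKM. Of 13 TNF family ligands 2 were expressed, *Tnfsf9* at 271 ± 6.396 FPKM and TWEAK itself (*Tnfsf12*) at 11.6, 8.51 and 12.1 FPKM. The receptor of *Tnfsf9*, *Tnfrsf9*, was at 6.27 ± 1.11 FPKM.

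Of 43 cytokine receptors 15 were expressed (34.9%, beside 58.7% of all named entries). The shared chain of the interleukin-6 family, *Il6st*, was at 40.1, 43.9 and 45.2 FPKM, and the interferon receptor chain *Ifnar1* at 41.3, 41.7 and 39.5 FPKM, with overlapping ranges, while *Ifnar2* was not matched by name. Of 9 Toll-like receptors only *Tlr4*, the endotoxin receptor, was expressed, at 10.95, 11.7 and 12.2 FPKM. *Tlr3*, a sensor of double-stranded RNA, was at 0.342, 0.212 and 0.377 FPKM, from 12, 7 and 13 reads, and the kinase *Eif2ak2*, which also binds such RNA, at 1.59, 1.37 and 0.696 FPKM, from 21, 17 and 9 reads. *Il33*, an alarmin cytokine, was at 128, 133 and 121 FPKM, the highest of 33 interleukins and ahead of *Il18* at 6.87, 11.3 and 10.6 FPKM, while its receptor *Il1rl1* was at 0.946 ± 0.180 FPKM. Of 19 chemokine receptors *Ccr10* (6.02 ± 0.637 FPKM), *Ackr3* (6.001 ± 0.965 FPKM) and *Ccr7* (1.36 ± 0.167 FPKM) were expressed.

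The G protein-coupled receptors for small ligands and peptide hormones were counted in 3 lists. In each list the expressed share was under the 58.7% of all named entries. Of 30 receptors for lipids, nucleotides and proteases 7 were expressed: the thrombin receptor *F2r* was at 37.6, 38.8 and 35.95 FPKM, the sphingosine phosphate receptor *S1pr2* at 18.5, 19.8 and 22.3 FPKM and the lysophosphatidic acid receptor *Lpar1* at 15.9, 16.3 and 16.8 FPKM, and no neighbours in their order overlapped. Of 32 amine receptors only 2 serotonin receptors passed the floor, *Htr7* and *Htr1b*, each at 1.23 FPKM on average, and 23 were listed at 0. Of 53 receptors for peptide hormones 3 passed, *Crhr2* for corticotropin-releasing factors (11.7, 12.9 and 13.2 FPKM), *Cckar* for cholecystokinin (5.47, 5.65 and 5.29 FPKM) and *Rxfp1* for relaxin (1.75 ± 0.196 FPKM), and 38 were listed at 0. The receptors for natriuretic peptides were *Npr2* at 9.79, 9.61 and 8.84 FPKM, *Npr1* at 0.385 ± 0.122 FPKM and *Npr3*, listed at 0.

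Nuclear receptors, which turn lipophilic signals into transcription, were expressed for 28 of 48 genes (58.3%, beside 58.7% of all named entries). *Ppard* was at 122, 112 and 115 FPKM, the oxysterol receptor *Nr1h2* at 101, 90.03 and 87.6 FPKM and the clock repressor *Nr1d1* at 86.6, 81.5 and 82.03 FPKM. *Pparg* was at 33.1 ± 0.386 FPKM and the glucocorticoid receptor *Nr3c1* at 10.03 ± 1.0001 FPKM. Oestrogen receptors stood near the floor (*Esr1* at 2.26 ± 0.232 FPKM and *Esr2* at 1.41 ± 0.162 FPKM).

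Among secreted products, the vascular growth factors *Vegfb* (98.2, 83.9 and 87.95 FPKM), *Vegfc* (69.8, 71.7 and 69.5 FPKM) and *Vegfa* (46.7, 46.4 and 45.3 FPKM) were all expressed, with no overlap between them. The guidance factors *Sema3e* (67.6, 71.6 and 72.3 FPKM) and *Sema3c* (49.02, 50.7 and 52.1 FPKM) led 9 expressed semaphorins of 20. The IGF axis held 1 high member, *Igfbp4*, beside *Igfbp7* at 1.34 ± 0.102 FPKM, and *Igf1*, *Igf2* and *Ins* were listed at 0. Of 21 FGF genes *Fgf13*, which stays inside the cell, was at 9.404 ± 0.109 FPKM and *Fgf22* at 2.54, 0 and 0.862 FPKM, from 3, 0 and 1 reads, so no secreted FGF was expressed in each library. The matrix proteases *Mmp9* (114, 104 and 105 FPKM), *Mmp10* (90.4, 89.7 and 83.3 FPKM) and *Mmp14* (47.8, 50.4 and 49.4 FPKM) led 10 expressed of 21, beside their inhibitors *Timp1* (173, 158 and 142 FPKM) and *Timp2* (62.5, 56.4 and 56.02 FPKM). *Mmp2*, *Timp3* and *Timp4* were listed at 0. Of 18 ADAM proteases 7 were expressed, with *Adam19* at 163 ± 2.75 FPKM above *Adam9* (47.5 ± 3.203 FPKM) and *Adam15* (45.1 ± 2.64 FPKM). The urokinase receptor *Plaur* was at 68.8 ± 3.69 FPKM and urokinase itself, *Plau*, at 1.88 ± 0.360 FPKM.

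Ion channels of excitable cells were mostly under the floor. Of 84 potassium channel subunits 7 were expressed and 50 were listed at 0. The highest, *Kcnab2* (93.2, 89.8 and 87.8 FPKM), is an auxiliary subunit, and next came *Kcnq5* (3.74 ± 0.360 FPKM) and *Kcng2* (3.74 ± 0.588 FPKM), with *Kcng2* overlapping both *Kcnq5* and *Kcnk5* in range. *Scn8a* was the only one of 9 sodium channels at the floor (2.35 ± 0.175 FPKM), and *Cacna1c* (2.88 ± 0.270 FPKM) and *Cacna1g* (1.87 ± 0.0510 FPKM) were the calcium channels above it. Of 20 TRP channels, *Trpc2* (29.6, 30.2 and 29.7 FPKM), *Trpm7* (22.01, 24.8 and 25.2 FPKM) and *Trpv2* (13.6, 13.5 and 12.5 FPKM) were the highest of 5 expressed.

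Of 24 genes of the unfolded protein response, which adjusts folding capacity in the endoplasmic reticulum (ER), 23 were expressed. This share of 95.8% stands beside 58.7% of all named entries, and *Ern2*, the gut sensor, was listed at 0. The chaperone *Hspa5* (BiP) was at 1131, 1129 and 1135 FPKM, *Atf4* at 656, 616 and 637 FPKM and calreticulin (*Calr*) at 615, 604 and 601 FPKM, and the ranges of *Atf4* and *Calr* did not overlap. The 3 sensors of ER stress differed in level, with *Atf6* at 91.96 ± 0.711 FPKM, *Ern1* (IRE1) at 29.8 ± 0.826 FPKM and *Eif2ak3* (PERK) at 5.87 ± 0.486 FPKM. *Xbp1*, which IRE1 splices, was at 25.96, 26.2 and 28.4 FPKM, and *Hspa5* was 42.2 ± 1.97 times above it. FPKM per gene does not separate the spliced from the unspliced form. The stress effector *Ddit3* (CHOP) was at 150.1, 155 and 166 FPKM.

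Sialyltransferases add sialic acid to the sugar chains of proteins and lipids, and they differ in linkage and in acceptor. Among 20 sialyltransferases, *St3gal1* (95.1, 97.4 and 94.1 FPKM), *St6galnac4* (38.1, 32.4 and 35.4 FPKM) and *St3gal4* (23.6, 23.1 and 20.4 FPKM) led 9 expressed genes, while *St6gal1* and *St6gal2*, which make the alpha-2,6 linkage on N-glycans, were listed at 0. All 6 genes of the alpha-2,3 family (*St3gal1* to *St3gal6*), whose members act on N-glycans, O-glycans or glycolipids, were expressed, the lowest mean being that of *St3gal3* at 5.38 ± 1.22 FPKM, with a range that overlapped that of *St3gal5*. *Mgat1* (30.97 ± 1.05 FPKM) and *Mgat2* (18.7 ± 2.04 FPKM), which start the antennae of complex N-glycans, and *Fut8* (11.03, 9.34 and 9.34 FPKM), which adds the core fucose, were expressed. *Mgat3*, which adds the bisecting sugar, was at 0, 0 and 0.0760 FPKM, and *Ggta1*, which makes the alpha-galactose epitope, was listed at 0. *Cmah*, which makes a sialic acid that humans lack, was at 2.75 ± 0.0883 FPKM.

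Adiponectin is a fat cell hormone that T-cadherin binds, and *Adipor1*, *Adipor2* and *Calr* have been put forward as other candidate receptors. The study cites its authors' earlier work, in which serum adiponectin bound cells with T-cadherin and not cells with these other candidates. All 4 genes were expressed. *Adipor1* was at 131, 132 and 129 FPKM, 2.05 ± 0.0482 times *Adipor2* (65.9, 64.03 and 61.8 FPKM), and *Cdh13* lay between them, at 1.33 ± 0.0451 times *Adipor2*. Of 17 exosome components 14 were expressed, led by *Cd63* (688, 709 and 639 FPKM), the heat shock cognate *Hspa8* (376, 379 and 376 FPKM) and *Anxa2* (352, 330.1 and 331 FPKM). *Lamp1* was at 229, 224 and 221 FPKM. The secretory GTPases *Rab27a* (0.945 ± 0.173 FPKM) and *Rab27b* (0.592 ± 0.125 FPKM) and the tetraspanin *Cd82* were under the floor. Of the receptors for uptake, *Scarb1*, which takes up cholesterol from high-density lipoprotein, was at 140.3, 137 and 135 FPKM, whereas the transferrin receptor *Tfrc* was at 3.87 ± 0.506 FPKM.

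Genes of dividing cells were expressed. Of 14 cyclins and cyclin-dependent kinases 12 were expressed, with *Cdk4* at 285, 273 and 271 FPKM, *Cdk6* at 132, 144 and 153 FPKM and *Ccnd1* at 122, 131 and 125 FPKM, and the germ cell cyclins *Ccna1* and *Ccnb3* were at or near 0. All 32 genes of DNA replication were expressed, led by *Pcna* at 149.8 ± 5.25 FPKM. The selection genes often used in CHO work were present in these cells: *Glul* was at 29.7 ± 0.311 FPKM, *Hprt1* at 26.5 ± 1.79 FPKM and *Aprt* at 419.6, 401 and 393 FPKM.

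The 3 libraries were close to each other in size and in the number of genes they detected. The FPKM summed to 666267, 654864 and 646651, and 15145, 15109 and 15185 entries were above 0. The files give no read totals, and the absolute depth is unknown. Low FPKM are whole multiples of what 1 read is worth in that gene, and by these multiples replicates 2 and 3 had 94.0% and 98.0% of the depth of replicate 1, and 73.6% of 2322 low genes came out as whole reads in each library within 0.01 read. Replicate 1 carried more ribosomal RNA than the others: *Rn28s1* was at 72.01, 34.1 and 28.2 FPKM, and the ribosomal protein share was also highest there. Whether it moves other levels was not tested.

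The median coefficient of variation (CV, the SD divided by the mean) of the 11490 expressed entries was 6.05%, and 73.3% of them had a CV under 10%. The spread narrowed with the level: the median CV was 19.0% at 1 to 2 FPKM, 12.3% at 2 to 5 FPKM, 8.004% at 5 to 10 FPKM, 5.002% at 10 to 100 FPKM, 3.47% at 100 to 1000 FPKM and 2.85% above that. The order of genes near the floor is therefore not settled by 3 libraries. Among 707 genes under the floor with at least 15 recovered reads, the variance between libraries was on average 1.23 times what counting alone would give. Pearson's r between pairs of libraries, on log2(FPKM + 0.1) of the expressed entries, was 0.957, 0.961 and 0.959, and it was 0.990, 0.990 and 0.991 when the 105 entries at 0 in some library were left out. These correlations are across genes, which are not independent replicates.

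**Figure D5:**
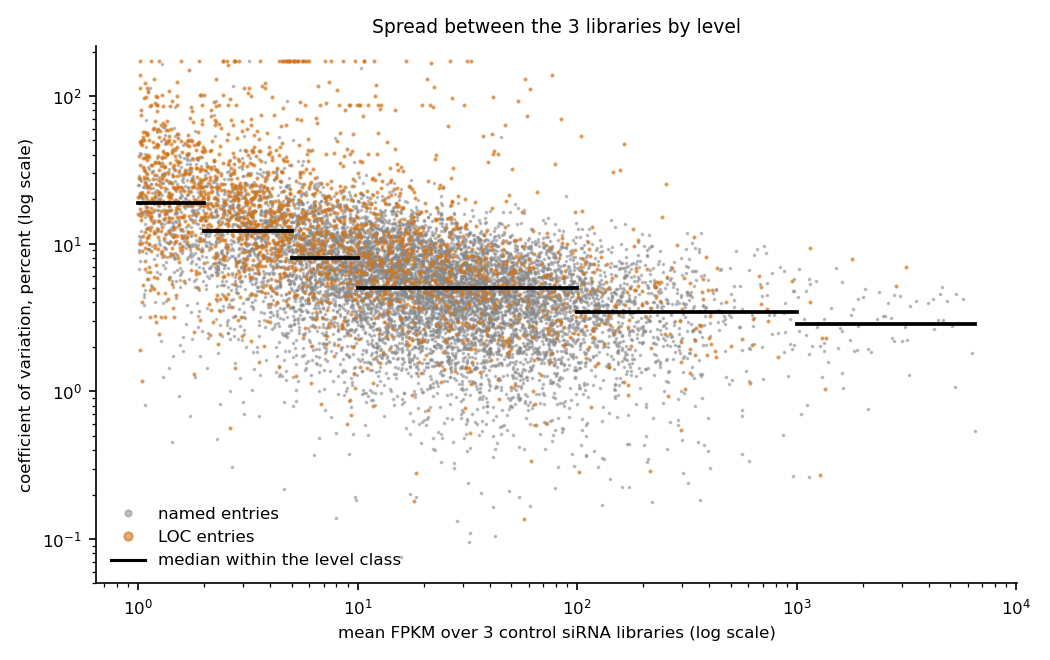
Coefficient of variation over the 3 libraries (percent, log axis) against mean FPKM (log axis) for the 11490 expressed entries, with named entries in grey, LOC entries in orange and the median of each level class as a black line. The median falls from 19.0% at 1 to 2 FPKM to 2.85% at 1000 FPKM or more, and the band at 173% holds entries with a value in 1 library only.

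Of the 231 expressed entries with a CV over 50%, 207 were LOC entries. The named genes with the largest CV were *Mt1*, *Zfyve21* (3.72, 0.114 and 0 FPKM), *Lamtor4* (1.64, 28.8 and 0.472 FPKM), the second row of *Birc5* (6.35, 0.695 and 1.05 FPKM) and *Fgf22*. Each of these drew most of its mean from 1 library. At means of 10 FPKM or more the largest CVs after *Lamtor4* and *Rn28s1* were those of *S100a5* (7.25, 12.3 and 13.03 FPKM), *Neurl2* (13.3, 9.04 and 7.92 FPKM) and *Cyren* (12.2, 20.9 and 19.6 FPKM), and in each of them replicate 1 stood apart from the others. The smallest CVs at that level belonged to *CUNH1orf198* (15.7, 15.7 and 15.8 FPKM), *Gbf1* (32.3, 32.3 and 32.2 FPKM), *Stim2* (42.2, 42.2 and 42.1 FPKM), *Wdr1* (32.5, 32.6 and 32.6 FPKM) and *Wdr3* (28.2, 28.2 and 28.2 FPKM). Over this many genes and 3 libraries some CVs are near 0 by the draw, so these genes are given as values only. A paired comparison of 2 genes over 3 libraries cannot give an exact two-sided p below 0.25, so orders of level are those of the means, and neighbours were compared by their ranges.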

How the data were processed

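RNA from CHO-T cells was sequenced with a stranded mRNA library kit, and the authors deposited FPKM, 1 library per file. The submitters' processing notes name HISAT2 2.1.0 and Cuffdiff 2.2.1. The genome build, the annotation and the use of strand in counting are not given in the sources used here. Only the 3 control siRNA libraries were read (groups from the sample titles), and the other 3 were not analysed here. Values were used as deposited. Per gene the mean, SD and CV were computed with Python 3.11.15, numpy 2.4.6 and pandas 2.3.3, and no test was made. Genes were matched by symbol, or by RefSeq gene number for LOC entries (27 list members), and RefSeq served for names only. A member on several rows took its highest row. Members and lists were chosen with earlier results of these data known. Named genes were the 25 highest, the 3 highest of each list and members listed at 0, the 5 with the largest and smallest CV, and genes central to the study. Others in the text were chosen after their values were seen. Depth ratios came from the steps of low values, and reads are the smallest whole numbers that give those steps, for means up to 2 FPKM. The steps and the CV were tested on simulated data. A zero can be a failed estimate, so such genes are given as listed at 0.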

Additional observations from a re-analysis of the deposited data

How the results depend on the processing

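No paired analysis was possible because no result comes from a test and only 1 group was read. The count of expressed entries was 12297 at a floor of 0.5 FPKM, 10634 at 2 FPKM, 11083 with 1 FPKM in every library and 11959 with libraries rescaled to a common sum, and 11456 to 11470 when 1 library was left out. The shares of the 10 highest entries (7.97 to 8.05%) and of ribosomal proteins (24.0 to 24.3%) moved by less than 1 SD. The median CV was 4.27 to 5.53% with 1 library left out, which leaves 2 values per gene. The lowest replicate correlation was 0.981 with a pseudocount of 1, 0.922 with 0.01, and 0.956 to 0.961 with 1 library left out. Without a floor it was 0.989, but there the 11373 entries listed at 0 in all 3 libraries enter as identical points. Among entries of 10 FPKM or more, r was 0.954, 0.954 and 0.964 for the 3 pairs of libraries.

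Of 74 gene lists, 60 kept their count of expressed members within 1.5 times of the reported one under each alternative listed above. At a floor of 2 FPKM the count was 0 for germ cell, haematopoietic, amine receptor and Wnt genes, 12 for Hox genes, and 1 for ovarian surface genes, cadherins, Sox genes, FGFs, the IGF axis and calcium channels. At a floor of 0.5 FPKM it was 2 for germ cell, endothelial and haematopoietic genes and 3 for muscle genes, Toll-like receptors and Wnt ligands. With rescaled libraries it was 1 for endothelial genes, 2 for Wnt ligands and 3 for muscle genes. With 1 FPKM required in every library it was 1 for ovarian surface genes and FGFs and 0 for haematopoietic genes. With 1 library left out it was 1 to 2 for ovarian surface genes and FGFs (1 without replicate 1) and 0 to 1 for haematopoietic genes (0 without replicate 3).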
